A study of Homo sapiens with 28 samples.

Results

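A pair of fatty acids with the same formula was compared in cells that also received RSL3, a covalent inhibitor of the lipid peroxidase GPX4. The comparison sets the 4 RNA-seq libraries of RSL3+CLA18:2 against the 4 of RSL3+LA, which are 8 of the 28 libraries of the series. The cells were HT-1080, a human fibrosarcoma line labelled wild type, and all groups came from this 1 line. Both groups had an overnight incubation with 10 nM RSL3 together with 80 µM of a fatty acid, which was linoleic acid (LA) in one and conjugated linoleic acid (CLA18:2) in the other. For the fatty acids the unit µM follows the series' design text, since the sample labels give the same figure in mM. The same acids without RSL3, at 80 µM and 4 libraries each, give a second isomer comparison that shares no library with the first. Libraries of the vehicle (DMSO) and of 10 nM RSL3 alone give reference levels.

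LA and CLA18:2 are isomers that carry the same number of double bonds. The double bonds are separated by a methylene group in LA and conjugated in CLA18:2. The methylene hydrogens of LA are a classic site for the start of lipid peroxidation by hydrogen abstraction, while radicals can add directly to a conjugated diene. GPX4 reduces phospholipid hydroperoxides with glutathione, and cells that lose its activity can die by ferroptosis, a death driven by peroxidation of membrane lipids. The transcription factor NRF2 responds to electrophiles such as lipid aldehydes and induces genes for glutathione synthesis, iron storage and NADPH supply. How cells given RSL3 differ in their transcripts between the acids is the question that this comparison can address.

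Library totals ran from 17731009 to 22468321 counts in RSL3+CLA18:2 and from 18563280 to 19780836 in RSL3+LA. Levels are CPM, counts scaled to a common library size and composition, which are shares of the RNA sequenced, so fewer cells of a kind and less RNA per cell cannot be told apart. The first principal component of the 8 libraries, with 30.1% of the variance, separated the groups. The second, with 20.1%, separated RSL3+CLA18:2 replicates 3 and 4 from each other. The biological coefficient of variation was 15.1% in RSL3+CLA18:2 and 9.002% in RSL3+LA. At a common total of 17731009 counts, 19076 to 21462 genes had a count in RSL3+CLA18:2 and 20961 to 22608 in RSL3+LA, a difference that was not past an exact two-sided permutation test (p = 0.0571, adjusted p = 0.114 over 2 library measures, smallest possible p = 0.0286). All 16 mesenchymal and fibrosarcoma markers were expressed well enough to test, against 5 of 16 epithelial, 4 of 12 endothelial and 0 of 16 blood cell markers. The blood cell markers summed to at most 0.405 CPM in RSL3+CLA18:2 and 0.810 in RSL3+LA, with 8 of the 16 at 0 in all 8 libraries.

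**Figure D1:**
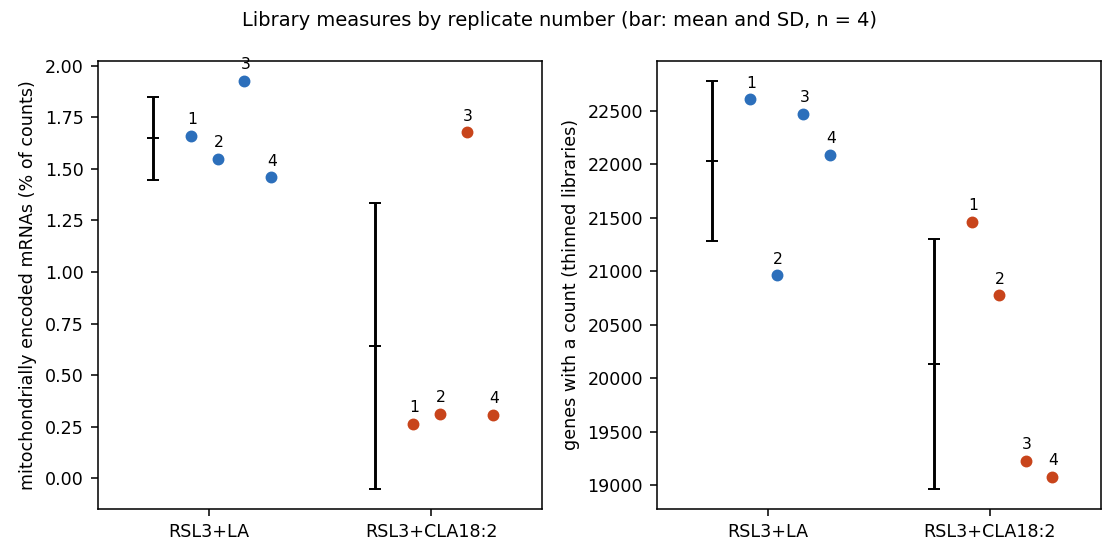
Share of counts on mitochondrially encoded mRNAs (left, percent) and number of genes with a count after thinning to a common total (right) in each library of RSL3+LA and RSL3+CLA18:2. Points carry replicate numbers and bars are the mean and SD of 4 libraries. RSL3+CLA18:2 replicate 3, at 1.68%, sits with the RSL3+LA libraries in its mitochondrial share, while the other 3 lie between 0.263% and 0.313%.

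Of 16325 genes tested, 4254 (26.1%) differed between the isomers in the presence of RSL3 at an adjusted p under 0.05 in edgeR. With CLA18:2, 2296 (14.1%) were higher and 1958 (12.0%) were lower than with LA. The balance depended on scaling and filter, with 1719 higher and 2683 lower when scaled by library totals only, and 1943 higher and 2036 lower without the low-count filter. The 4 libraries a side did not overlap for 23.0% of the tested genes. At least 2-fold differences were fewer, with 218 genes higher and 275 lower. The 2-fold higher genes had a median level of 3.63 CPM and the 2-fold lower genes 1.32 CPM, against 14.7 CPM over all tested genes, so many of the large falls were in rare transcripts. The direction differed by gene class. Among protein-coding genes 17.4% were higher and 13.3% lower, while among long noncoding RNA genes 4.02% were higher and 10.7% lower. Without RSL3, the same isomers differed in 15.6% of genes with CLA18:2 higher and 14.6% with it lower. A list below whose counts lie near the shares of all tested genes does not stand out from them. Values below are log2 fold changes of RSL3+CLA18:2 against RSL3+LA ± SE with n = 4 libraries a group, unless another comparison is named.

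NRF2 targets had the highest median of the gene lists described here. Of 35 tested members 31 rose and 0 fell, with a median of 0.92, against a median of -0.02 over all tested genes. HMOX1, heme oxygenase 1, which breaks down heme and releases iron, lies on chromosome 22 from 35380361 to 35394214 (GRCh38). Its level was 811, 714, 672 and 771 CPM in RSL3+CLA18:2 and 114, 112, 81.3 and 79.2 CPM in RSL3+LA. The lowest library with CLA18:2 was thus far above the highest with LA, and mean levels in DMSO and RSL3 alone were 26.9 and 133 CPM. The difference was 2.94 ± 0.10, or 7.68-fold (adjusted p = 4.2e-21). SLC7A11, the cystine importer that feeds glutathione synthesis, stood at 166, 151, 148 and 181 CPM with CLA18:2 and at 42.0, 38.2, 31.3 and 31.1 CPM with LA. The libraries did not overlap, and the difference was 2.18 ± 0.09.

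Other NRF2 targets rose too. GCLM, the modifier subunit of the first enzyme of glutathione synthesis, had 279 to 304 CPM with CLA18:2 and 101 to 111 CPM with LA, a difference of 1.47 ± 0.06. TXNRD1, the cytosolic thioredoxin reductase and a selenoprotein, rose by 0.96 ± 0.05 and NQO1, a quinone reductase, by 0.66 ± 0.06. ME1, which makes NADPH from malate, rose by 0.92 ± 0.06. OSGIN1, a stress-induced growth inhibitor, was at 57.6 to 71.7 CPM against 11.0 to 12.4 CPM, 2.46 ± 0.08. The aldo-keto reductase genes AKR1B10 (3.05 ± 0.26) and AKR1C1 (2.15 ± 0.27) rose from levels near 1 CPM, and their close paralogs leave the source of shared reads uncertain. NMRAL2P, a pseudogene known as an NRF2 target, rose by 2.63 ± 0.17. The genes of the pathway itself differed less, with NFE2L2, which encodes NRF2, at 0.53 ± 0.06, its repressor gene KEAP1 at 0.33 ± 0.05 and BACH1, a repressor of HMOX1, at 0.26 ± 0.07, all past the test.

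Promoter sequence is shown for a pair of these genes because a short motif, the antioxidant response element core bound by NRF2, lies close to their start sites. The motif searched was TGACNNNGC on both strands in the 250 bases before RefSeq start sites (GRCh38.p14), which 10.9% of all promoter entries hold. Among tested genes with an entry, 365 of 1861 higher genes (19.6%), 222 of 1428 lower genes (15.5%) and 1147 of 7698 other genes (14.9%) held it, as did 7 of 24 NRF2 targets. Lower case is promoter sequence 5′ to 3′ on the gene's strand, and capitals mark the motif, which both genes carry on the opposite strand.
GCLM, chr1:93909436-93909484, minus strand: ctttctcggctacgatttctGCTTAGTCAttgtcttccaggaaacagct
AIFM2, chr10:70132826-70132867, minus strand: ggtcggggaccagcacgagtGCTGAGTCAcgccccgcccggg
In AIFM2 the match overlaps one to the AP-1 motif TGANTCA. A match describes letters and not binding.

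**Figure D2:**
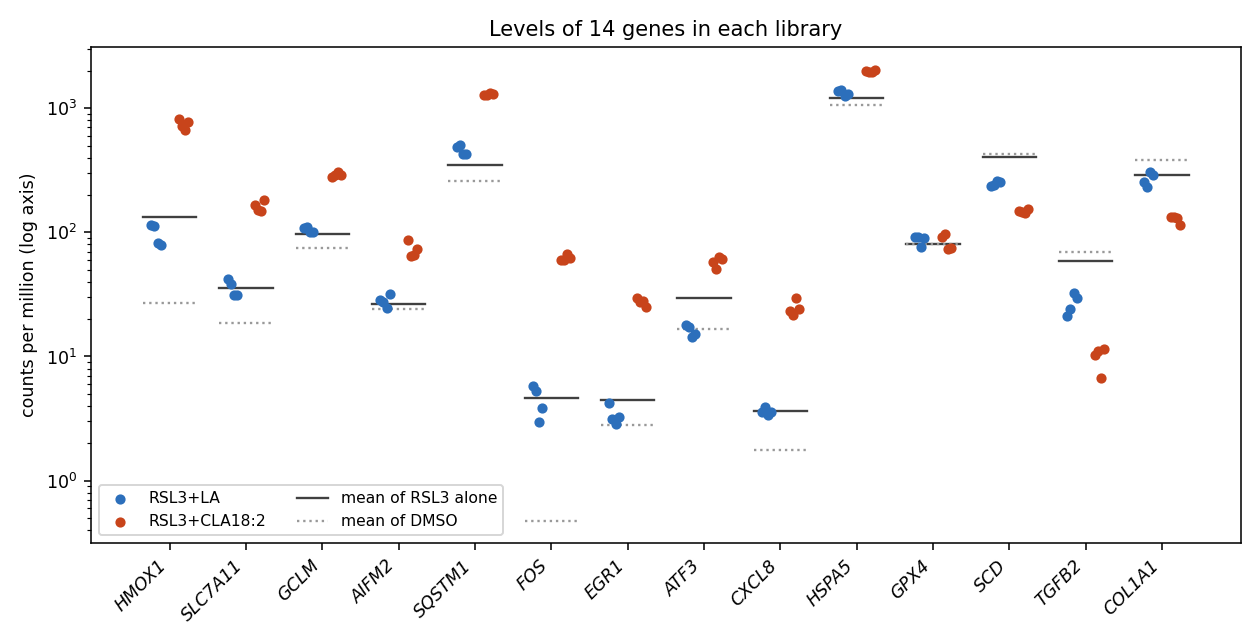
Levels in CPM on a log axis for 14 genes, with 1 point per library (4 of RSL3+LA in blue, 4 of RSL3+CLA18:2 in red), a solid line at the mean of RSL3 alone and a dotted line at the mean of DMSO. The 2 sets of points are apart for each gene drawn except GPX4, where 72.7 to 96.8 CPM with CLA18:2 spans the 75.7 to 92.2 CPM seen with LA.

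Genes that suppress or promote ferroptosis moved in both directions. Of 42 tested members 19 rose and 5 fell, with a median of 0.17, and HMOX1, SLC7A11 and the ferritin genes are also NRF2 targets. AIFM2 encodes FSP1, which regenerates reduced ubiquinone at membranes and protects cells without GPX4 activity. It was at 86.5, 63.9, 65.7 and 73.8 CPM with CLA18:2 and at 28.3, 27.3, 24.6 and 32.0 CPM with LA, 1.37 ± 0.08 (adjusted p = 5.7e-15). The ferritin genes FTL (1569 to 1598 against 932 to 1007 CPM, 0.69 ± 0.05) and FTH1 (0.75 ± 0.07), which store iron, rose too, though both have many processed pseudogenes that could share reads. CHAC1, which degrades glutathione, rose by 0.74 ± 0.16 and PTGS2, the cyclooxygenase 2 gene often used as a mark of ferroptosis, by 0.93 ± 0.15, both at 13 CPM or less. The 5 that fell were DHODH, STEAP3, ALOX12, HSPB1 and CHMP6, and 3 fell without RSL3+LA replicate 3 or without RSL3+CLA18:2 replicate 1, 2 or 3.

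Other central ferroptosis genes differed little or not detectably. GPX4, the target of RSL3, was at 91.3, 96.8, 72.7 and 74.5 CPM with CLA18:2 and 92.2, 91.8, 75.7 and 89.7 CPM with LA. The groups overlapped, and the difference of -0.06 had a 95% interval from -0.21 to 0.08. TFRC, the transferrin receptor, was at 0.07 (interval -0.02 to 0.16) and ACSL3, which activates monounsaturated fatty acids, at 0.05 (-0.04 to 0.13). ACSL4, which activates polyunsaturated fatty acids for membranes, was 0.17 ± 0.05 with overlapping libraries, and it was not past the test without RSL3+LA replicate 1, without RSL3+CLA18:2 replicate 4, in a fit of the 8 libraries only or when scaled by library totals only. Among selenoproteins and their machinery 6 of 22 rose and 3 (TXNRD2, SELENOW and SEPHS1) fell, while 1 fell without RSL3+LA replicate 4 or RSL3+CLA18:2 replicate 1, 3 or 4. Beside TXNRD1, the methionine sulfoxide reductase MSRB1 (1.08 ± 0.05), the ER protein SELENOK (1.13 ± 0.06) and SELENOT (0.29 ± 0.05) were higher.

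Enzymes that remove aldehydes moved in both directions, 10 of 24 higher and 5 lower. ALDH2, the mitochondrial aldehyde dehydrogenase, stood at 30.6 to 34.7 CPM against 9.83 to 12.4 CPM, 1.53 ± 0.09. The glutathione transferases MGST1 (0.69 ± 0.06) and GSTP1 (0.42 ± 0.04) rose. ALDH1B1, its mitochondrial relative, fell (-0.62 ± 0.08), as did ALDH1A3, ALDH3B1, ALDH7A1 and GSTK1.

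Immediate early genes are switched on within minutes of a stimulus. Of 27 tested members 14 rose and 2 (FOSL2 and MYC) fell, with a median of 0.22. FOS, a subunit of the AP-1 transcription factor, was at 59.7, 60.2, 67.4 and 62.4 CPM with CLA18:2 and at 5.82, 5.23, 2.97 and 3.85 CPM with LA. The 4 LA libraries lay around the mean of RSL3 alone, 4.64 CPM, and DMSO was at 0.477 CPM. The difference was 3.80 ± 0.16, or 14.0-fold (adjusted p = 3.7e-19). FOSB, a close relative, was at 34.6 to 44.1 against 4.20 to 7.16 CPM, 2.74 ± 0.14. EGR1, a zinc finger transcription factor, lies on chromosome 5 from 138465490 to 138469315. It was at 29.5, 27.7, 28.1 and 25.1 CPM with CLA18:2 and at 4.19, 3.16, 2.87 and 3.24 CPM with LA, 3.03 ± 0.14. ATF3, a stress factor shared by the AP-1 and integrated stress response lists, was at 50.4 to 63.6 against 14.3 to 17.8 CPM, 1.85 ± 0.08.

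Some cytokine genes known to be driven by AP-1 and NF-kappaB were higher. CXCL8, which encodes interleukin 8, was at 23.3, 21.8, 29.3 and 24.2 CPM with CLA18:2 and at 3.56, 3.95, 3.38 and 3.55 CPM with LA, 2.77 ± 0.14. CXCL3, a related chemokine with close paralogs, rose by 3.44 ± 0.22. Of 19 NF-kappaB and cytokine genes 7 rose and 1 (IL11) fell, with 2 falls without RSL3+LA replicate 2. NFKBIA, the inhibitor that NF-kappaB induces, rose by 0.84 ± 0.08 and NFKB2 by 0.40 ± 0.06. Among 22 interferon response genes 3 rose and 1 fell, near the 14.1% higher and 12.0% lower among all tested genes. Those that rose were IFI44 (1.75 ± 0.16), MX1 (0.87 ± 0.16) and IFIT3 (0.57 ± 0.15), all below 14 CPM. The 1 that fell, IFI27 (-2.66 ± 0.89), rested on RSL3+LA replicate 2, at 8.24 CPM beside 0.419 to 1.52 CPM in the other 3, and was not past the test without it, without RSL3+CLA18:2 replicate 3 or 4, or in limma voom.

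The promoters of EGR1 and CXCL8 are printed because they carry motifs of the factors that classically drive them. The CArG box, bound by serum response factor, occurs in 1.16% of promoter entries, in 1.56% of higher, 2.17% of lower and 1.38% of other tested genes with an entry, and EGR1 holds 2. The AP-1 motif TGANTCA occurs in 6.57% of entries, and in 175 of 1861 higher genes (9.40%), 76 of 1428 lower genes (5.32%) and 468 of 7698 others (6.08%). Of 20 tested immediate early genes with an entry, 1 (EGR1) holds a CArG box and 0 hold the AP-1 motif. Of 13 tested NF-kappaB and cytokine genes with an entry, 3 hold the AP-1 motif. Capitals mark the motifs.
EGR1, chr5:138465354-138465425, plus strand: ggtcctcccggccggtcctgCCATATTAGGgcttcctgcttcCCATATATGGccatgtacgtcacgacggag
CXCL8, chr4:73740407-73740463, plus strand: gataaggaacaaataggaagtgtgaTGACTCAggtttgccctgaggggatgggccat

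**Figure D3:**
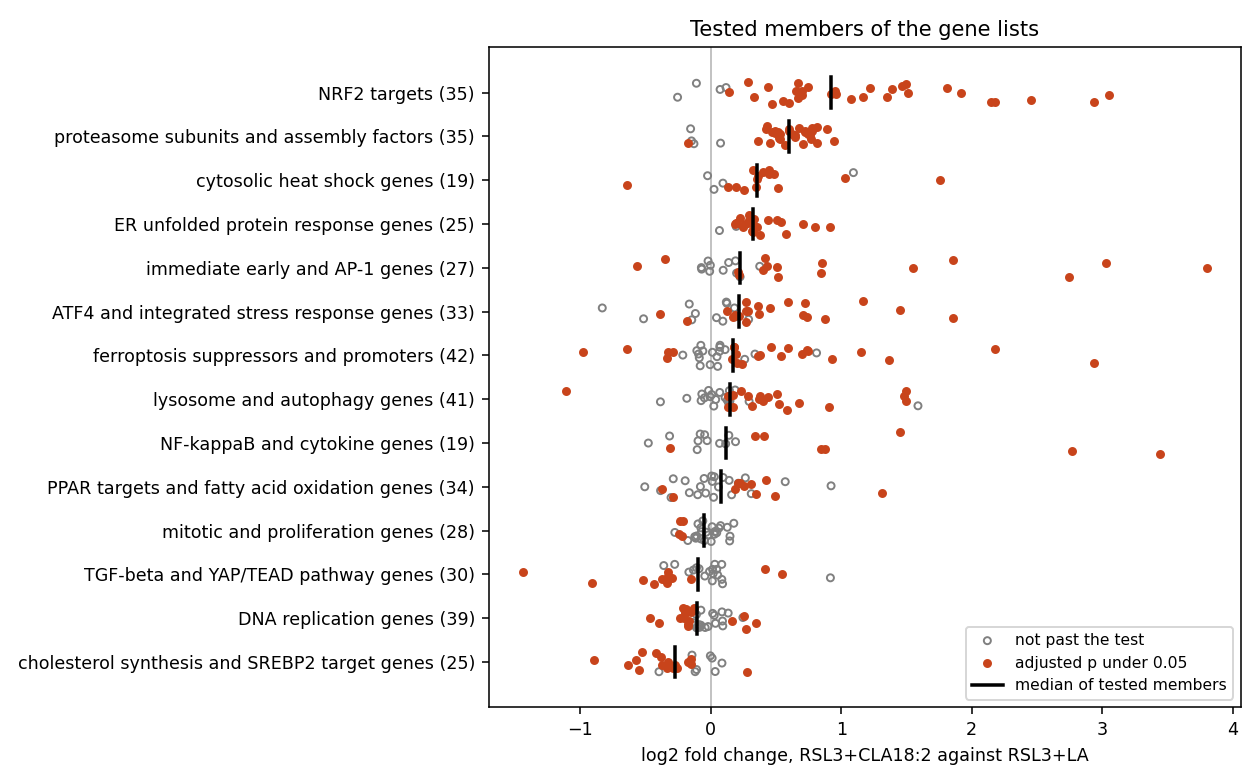
Log2 fold change of RSL3+CLA18:2 against RSL3+LA for each tested member of 14 gene lists, whose sizes stand in parentheses. Filled points passed an adjusted p of 0.05, open points did not, and bars are medians. NRF2 targets (median 0.92) and proteasome genes (0.60) lie mostly to the right, and cholesterol synthesis genes (-0.27) mostly to the left.

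Most proteasome and cytosolic heat shock genes rose. Of 35 proteasome subunits and assembly factors 30 rose and 1, the assembly factor gene PSMG1, fell, with a median of 0.60. The fall was not called without RSL3+LA replicate 2, 3 or 4, without RSL3+CLA18:2 replicate 2, 3 or 4, in limma voom or in fits of the 8 or 16 libraries only, and library totals only gave 3 falls. The tested members ranged from -0.18 to 0.94, and the 4 with the smallest p, given here, lay above the median. PSMB2, a core subunit, was at 448 to 464 against 234 to 255 CPM (0.89 ± 0.04, adjusted p = 3.3e-19). The regulatory subunits PSMD14, PSMD12 and PSMC6 were at 0.81 ± 0.04, 0.78 ± 0.04 and 0.94 ± 0.05. Of 19 cytosolic heat shock genes 14 rose and 1 (HSPB1) fell, a fall not called without RSL3+LA replicate 2 or 4, without RSL3+CLA18:2 replicate 1 or 3, in limma voom, without the filter or in fits of the 8 or 16 libraries only. HSPB8, a small heat shock protein that acts with BAG3 in selective autophagy, was at 83.5 to 98.7 against 23.7 to 32.1 CPM, 1.75 ± 0.08. BAG3 rose by 0.52 ± 0.05, and the chaperone genes HSP90AA1 and HSPA8, the latter with many pseudogenes, by 0.49 ± 0.04 and 0.45 ± 0.04.

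The unfolded protein response of the endoplasmic reticulum (ER) showed smaller differences over nearly its whole list. Of 25 members 23 rose and 0 fell, with a median of 0.33. HSPA5, the main ER chaperone, was at 1984, 1938, 1945 and 2032 CPM with CLA18:2 and at 1367, 1391, 1249 and 1300 CPM with LA. The libraries did not overlap, and the difference was 0.57 ± 0.03 (adjusted p = 3.7e-15). HERPUD1, of ER-associated degradation, rose by 0.71 ± 0.06, the ER membrane protein WFS1 by 0.80 ± 0.07 and the chaperone CANX by 0.33 ± 0.03. The ER stress element, bound by ATF6 with NF-Y, occurs in 26 of 35116 promoter entries (0.074%). It occurs in 8 of 24 tested members of this list with an entry, and 12 of the 16 tested genes that hold it were higher and 1 was lower. HSPA5 is shown as one of them, with the element in capitals.
HSPA5, chr9:125241371-125241429, minus strand: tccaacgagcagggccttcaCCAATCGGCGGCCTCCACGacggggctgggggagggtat

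Integrated stress response genes rose in part. Of 33 tested genes of the ATF4 and integrated stress response list 19 rose and 2 (STC2 and BBC3) fell, with a median of 0.22. PPP1R15A, which directs the phosphatase that ends the response, was at 220 to 231 against 96.3 to 108 CPM, 1.17 ± 0.05. ATF4 itself rose by 0.45 ± 0.04, its target TRIB3 by 0.59 ± 0.06 and SESN2, a leucine sensor that restrains mTORC1, by 0.37 ± 0.06. DDIT3, the factor CHOP, rose by 0.71 ± 0.16 and DDIT4, an mTORC1 inhibitor, by 0.72 ± 0.16, both below 10 CPM. GDF15, a stress cytokine, was at 407 to 497 against 363 to 458 CPM, and its difference of 0.12 (interval 0.00 to 0.25) was not past the test (adjusted p = 0.15). ASNS, asparagine synthetase, was near 1 CPM, with an interval from -0.76 to 1.34.
CHAC1 is shown for the amino acid response motif TGATGNAA, held by 3.14% of entries and 6 of 28 tested members of this list with an entry, in capitals on the opposite strand.
CHAC1, chr15:40953237-40953294, plus strand: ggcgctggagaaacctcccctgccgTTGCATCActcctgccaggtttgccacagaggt

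Lysosome and autophagy genes were higher in 20 of 41 and lower in 1, TFEB, the regulator of the pathway, with a median of 0.15. SQSTM1, the autophagy receptor p62, which also binds KEAP1, lies on chromosome 5 from 179806398 to 179838078. It was at 1278, 1277, 1313 and 1305 CPM with CLA18:2 and at 483, 503, 427 and 424 CPM with LA, 1.49 ± 0.05 (adjusted p = 3.1e-21). GLA, a lysosomal galactosidase, and GABARAPL1, which marks autophagosomes, rose by 1.49 ± 0.06 and 1.48 ± 0.07. The protease gene CTSD rose by 0.90 ± 0.05 and the proton pump subunit ATP6V0A1 by 0.40 ± 0.07. Outside that list, ABHD4, a lipase acting on N-acyl phospholipids, was at 50.9 to 59.8 against 8.97 to 12.0 CPM, 2.35 ± 0.09, and NPC1, which exports cholesterol from lysosomes, rose by 0.85 ± 0.05.

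Most cholesterol synthesis genes were lower with CLA18:2. Of 25 cholesterol synthesis and SREBP2 target genes 16 fell and 1 (LPIN1) rose, with a median of -0.27. INSIG1, which retains the SREBP complex in the ER, was at 58.6 to 59.6 CPM with CLA18:2 and 84.8 to 86.4 CPM with LA, below 130 CPM in RSL3 alone and 124 CPM in DMSO. It fell by 0.53, with an SE of 0.05. HMGCS1 (-0.38 ± 0.05), MSMO1 (-0.57 ± 0.07) and SQLE (-0.42 ± 0.06), enzymes of the pathway, also fell. SCD, the delta-9 desaturase that makes monounsaturated fatty acids, lies on chromosome 10 from 100347124 to 100364834. It was at 147, 147, 144 and 154 CPM with CLA18:2, at 235, 241, 259 and 254 CPM with LA and at a mean of 403 CPM in RSL3 alone, -0.74 ± 0.05 (adjusted p = 6.7e-15). FADS2 and FASN both fell by 0.21, SREBF1 fell by 0.37, and of 21 fatty acid synthesis genes 6 fell, 2 (ME1 and HSD17B12) rose and 13 were not past the test, with a median of -0.01.

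Fatty acid oxidation differed less between the isomers. Of 34 PPAR targets and oxidation genes 9 rose and 2 (PPARD and TXNIP) fell, with a median of 0.08. CPT1A, which starts mitochondrial fatty acid import, was at 54.5 to 57.2 against 40.9 to 50.5 CPM, 0.35 ± 0.08, while DMSO was at 9.69 CPM. The isomerase ECI2 rose by 0.43 ± 0.09 and the thioesterase ACOT7 by 0.22 ± 0.04, and the receptor PPARD was at -0.29 ± 0.05. Of 22 lipid droplet genes 6 rose, among them SOAT1, which esterifies cholesterol (0.57 ± 0.06), GPAT3 (0.38 ± 0.08) and LPIN2 (0.45 ± 0.10), and 2 (PNPLA3 and HILPDA) fell. That number was 1 without RSL3+LA replicate 1, 3 or 4, without RSL3+CLA18:2 replicate 1, 3 or 4 and with the 8 libraries only. The droplet coat gene PLIN2 and ANGPTL4 were near the detection floor, with intervals from -0.76 to 2.60 and from -0.18 to 1.32. RNF145, a sterol-responsive ubiquitin ligase, was at 283 to 297 against 256 to 284 CPM, 0.09 (-0.01 to 0.18). Among 16 LXR and cholesterol transport genes 2 rose (NPC1 and NR1H2) and 4 fell, including the cholesterol exporter ABCA1 (-0.56 ± 0.13), SREBF1 and TMEM97. Of all tested genes 14.1% were higher and 12.0% lower. Only 1 of the 16 rose without RSL3+LA replicate 1, 2 or 3, without RSL3+CLA18:2 replicate 1, in limma voom, with library totals only, without the filter or with the 8 libraries only.

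More TGF-beta and YAP/TEAD pathway genes fell than rose. Of 30 tested members 10 fell and 2 rose, with a median of -0.10. TGFB2, a secreted growth factor, lies on chromosome 1 from 218346235 to 218444619. It was at 10.3, 11.0, 6.69 and 11.6 CPM with CLA18:2, at 21.2, 23.9, 32.3 and 29.8 CPM with LA and at 58.8 CPM in RSL3 alone, -1.44 ± 0.13 (adjusted p = 4.5e-11). SMAD3, which carries its signal to the nucleus, fell by 0.91, with an SE of 0.05, and AJUBA, an adaptor of the Hippo pathway, by 0.44, with an SE of 0.06. The 2 that rose are YAP/TEAD targets, CCN2 (0.42 ± 0.07) and ANKRD1 (0.54 ± 0.08). CCN2 was at 868, 869, 1169 and 1175 CPM in RSL3+LA replicates 1 to 4, so the LA libraries themselves fell into a low and a high pair. ANKRD1, at 230, 263, 352 and 326 CPM, split the same way, as did THBS1, TGFB2 and COL1A1. For HMOX1, SLC7A11, FOS, GDF15, SQSTM1, VEGFA and NDRG1 replicates 1 and 2 were the higher pair. AIFM2 and EGR1 showed no such split, and the genes with it were not counted. The cause was not tested.

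Matrix and adhesion genes moved in both directions, 11 of 46 higher and 13 lower, with 7 higher when scaled by library totals only. COL1A1, the type I collagen chain, was at 132, 134, 130 and 115 CPM with CLA18:2 and at 253, 233, 304 and 290 CPM with LA, -1.08 ± 0.08. THBS1, thrombospondin 1, was at 1724 to 1885 CPM with CLA18:2 and at 2622, 2604, 3408 and 3524 CPM with LA, -0.77 ± 0.07, against 5211 CPM in RSL3 alone. COL5A1 fell by 0.39 and SPARC by 0.22, while the protease inhibitor TIMP1 (0.36 ± 0.05), the matrix protease MMP14 (0.26 ± 0.04) and the mesenchymal factor ZEB1 (0.33 ± 0.07) rose. Of the 16 mesenchymal markers 2 rose and 4 (COL1A1, COL6A1, SPARC and SNAI2) fell.

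Hypoxia, p53 and death genes were mixed. Of 31 hypoxia and glycolysis genes 13 rose, among them NDRG1 (125 to 134 against 48.3 to 69.4 CPM, 1.12 ± 0.07), the glucose transporter SLC2A3 (0.54 ± 0.07) and PKM (0.23 ± 0.03), and 2 fell. Those were PFKFB3 and VEGFA, which was at 117 to 138 CPM with CLA18:2 and at 232, 240, 177 and 185 CPM with LA (-0.67 ± 0.07). Of 27 p53 targets 6 rose, including GADD45A (0.60 ± 0.08) and PLK3 (0.32 ± 0.05), and 7 fell, including BTG2 (-0.64 ± 0.11), though 4 fell without RSL3+LA replicate 1. CDKN1A, the cell cycle inhibitor p21, was at 0.08 (0.00 to 0.16) and not past the test. Of 27 BCL2 family and death receptor genes 7 rose, with the caspase 8 inhibitor CFLAR at 0.40 ± 0.08 and BCL2A1 at 0.77 ± 0.18, and 3 fell, namely BBC3, BOK (-0.43 ± 0.09) and TNFRSF21 (-0.43 ± 0.05). Of 7 metallothionein and zinc genes 0 rose and 2 fell, MT1E (-0.31 ± 0.06) and MT1X (-1.09 ± 0.25), which have near-identical relatives, and 1 rose without RSL3+LA replicate 2, without RSL3+CLA18:2 replicate 1 or with the 16 libraries only.

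Proliferation genes differed between the isomers mainly when RSL3 was absent. Of all tested genes 12.0% were lower and 14.1% higher with RSL3, and 14.6% lower and 15.6% higher without it. In the presence of RSL3, 4 of 28 mitotic genes fell and 0 rose, with a median of -0.06, while without RSL3 26 fell and 0 rose. With RSL3, 1 rose without RSL3+LA replicate 3, without RSL3+CLA18:2 replicate 2, without the filter or with the 8 libraries only, and 7 fell with library totals only. CCNA2, cyclin A2, had mean levels of 163 CPM with RSL3+CLA18:2 and 194 CPM with RSL3+LA, and of 124 CPM with CLA18:2 and 196 CPM with LA. The isomer difference was -0.25 ± 0.05 with RSL3 and -0.66 without it, and the change between those, tested as an interaction, was 0.41 ± 0.07 (adjusted p = 5.9e-04). CDC20, which activates the anaphase-promoting complex, went from -0.51 without RSL3 to -0.21 ± 0.04 with it, UBE2C from -0.60 to -0.22 ± 0.05 and the kinase AURKB from -0.58 to -0.24 ± 0.07. MKI67, the Ki-67 gene, was at 301 to 369 against 313 to 379 CPM with RSL3, 0.00 (interval -0.18 to 0.18). The interaction was past the test and positive for 25 of 28 mitotic genes, against 2.41% of all tested genes. That count was 16 to 23 on leaving out 1 library, the lowest being without RSL3+LA replicate 1 or without LA replicate 4. Under the other settings its lowest value was also 16. Neither a leave-one-out fit nor another setting gave a negative call in the list.

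DNA replication genes behaved in a like way. With RSL3 15 of 39 fell and 4 (GINS3, RPA2, RRM1 and RRM2) rose, and 8 fell when RSL3+LA replicate 3 or 4 was left out. Without RSL3 32 fell and 0 rose, and the interaction was positive for 21 and negative for 0. UHRF1, which maintains DNA methylation at forks, was at 113 to 119 against 148 to 160 CPM with RSL3, -0.40 ± 0.06 beside -0.81 without RSL3. MCM3, of the replicative helicase, went from -0.59 to -0.20 ± 0.04. The ribonucleotide reductase genes RRM1 (0.35 ± 0.05) and RRM2 (0.16 ± 0.04), the single-strand binding subunit RPA2 (0.26 ± 0.06) and the mitotic kinase PBK (0.17 ± 0.05) were higher with RSL3+CLA18:2, though RRM2 and PBK were not past the test when scaled by library totals only, nor PBK without RSL3+LA replicate 1.

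**Figure D4:**
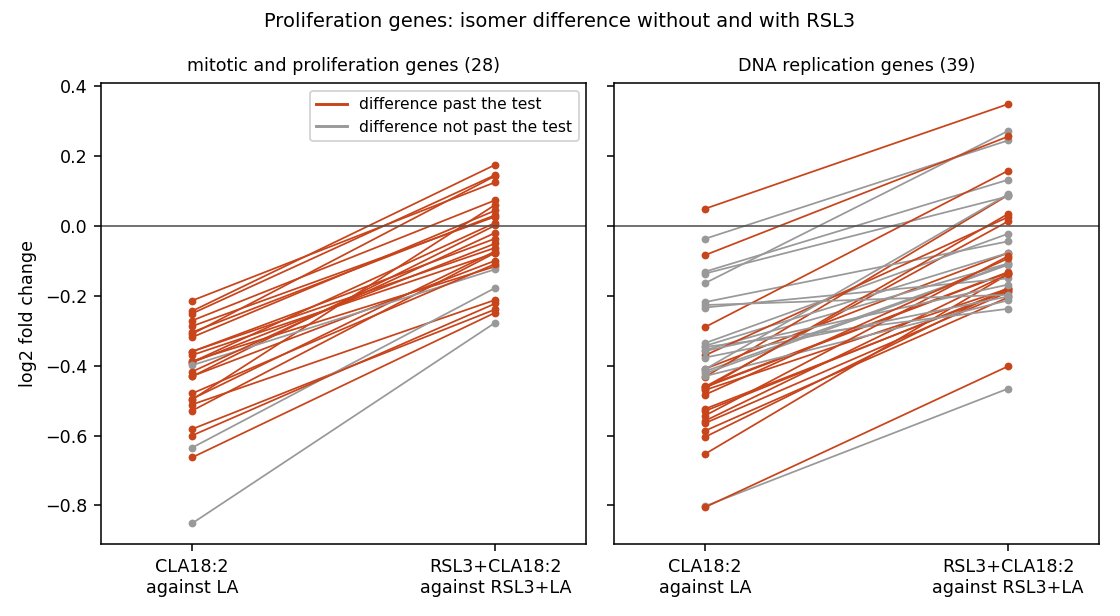
Log2 fold change between the isomers without RSL3 (left end of each line) and with RSL3 (right end) for 28 mitotic and 39 DNA replication genes. Red lines mark genes whose change between the ends passed an adjusted p of 0.05 in the interaction test, 25 and 21. The right ends lie closer to 0 or above it.

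Across all genes, 2751 were called in the same direction with and without RSL3 and 28 in opposite directions. The shared genes were 64.7% of the calls with RSL3 and 55.8% of those without it. The interaction was higher with RSL3 for 394 genes (2.41%) and lower for 199 (1.22%), and its total of 593 fell to 374 without RSL3+LA replicate 1, 377 without CLA18:2 replicate 2 and 379 without LA replicate 3. Genes whose isomer difference was larger with RSL3 included 5 of 27 immediate early genes, FOS, FOSB, EGR1, ATF3 and JUND. FOS had a mean of 2.50 CPM with CLA18:2 alone and 62.4 CPM with RSL3+CLA18:2, and its difference between isomers was 1.86 without RSL3 and 3.80 with it, an interaction of 1.94 ± 0.35 (adjusted p = 9.8e-04). For FOSB the interaction was 1.87 ± 0.23 (adjusted p = 8.2e-06), for ATF3 1.02 ± 0.12 (adjusted p = 5.3e-06), for EGR1 0.87 ± 0.20 and for NFKBIA 0.59 ± 0.11.

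Other genes had a smaller isomer difference with RSL3. GCNT3, a mucin-type glycosyltransferase on chromosome 15, had a mean of 21.1 CPM with CLA18:2 and 12.8 CPM with RSL3+CLA18:2, and 0.214 and 0.735 CPM with the LA groups. Its difference of 4.11 ± 0.21 with RSL3 was below the 6.61 without it, an interaction of -2.50 ± 0.39 (adjusted p = 2.6e-04). The levels in the LA groups were near the detection floor, so the size of these differences is uncertain. SQSTM1 had 1754 CPM with CLA18:2 and 1293 CPM with RSL3+CLA18:2, and its isomer difference went from 2.11 to 1.49, an interaction of -0.62 ± 0.07 (adjusted p = 5.3e-06). HSPA5 went from 0.99 to 0.57 (-0.41 ± 0.05), FTL from 1.19 to 0.69 (-0.50 ± 0.06) and NDRG1 from 1.82 to 1.12 (-0.71 ± 0.10). DDIT3 (-1.19 ± 0.22), ATP6V0A1 (-0.80 ± 0.10), OSGIN1 (-0.56 ± 0.11), SESN2 (-0.53 ± 0.09), HERPUD1 (-0.47 ± 0.08) and GDF15 (-0.44 ± 0.09) had interactions of the same sign. By list, the interaction was negative for 7 of 35 NRF2 targets, 6 of 33 ATF4 and integrated stress response genes, 5 of 25 ER genes and 6 of 41 lysosome genes, and the count of NRF2 targets was 4 without RSL3+LA replicate 1.

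For sterol and matrix genes that were lower with CLA18:2, some differences were smaller with RSL3. INSIG1 went from -0.87 without RSL3 to -0.53 with it (interaction 0.34 ± 0.07) and THBS1 from -1.38 to -0.77 (0.61 ± 0.10, adjusted p = 2.6e-04). Other leading genes were not past the interaction test. HMOX1 was at 0.36 (95% interval 0.07 to 0.64, adjusted p = 0.173), CXCL8 at -0.43 (-0.84 to -0.01, adjusted p = 0.311), AIFM2 at -0.22 (-0.46 to 0.02) and TGFB2 at -0.20 (-0.55 to 0.16). Of 35 proteasome genes, 0 were past the interaction test in either direction.

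**Figure D5:**
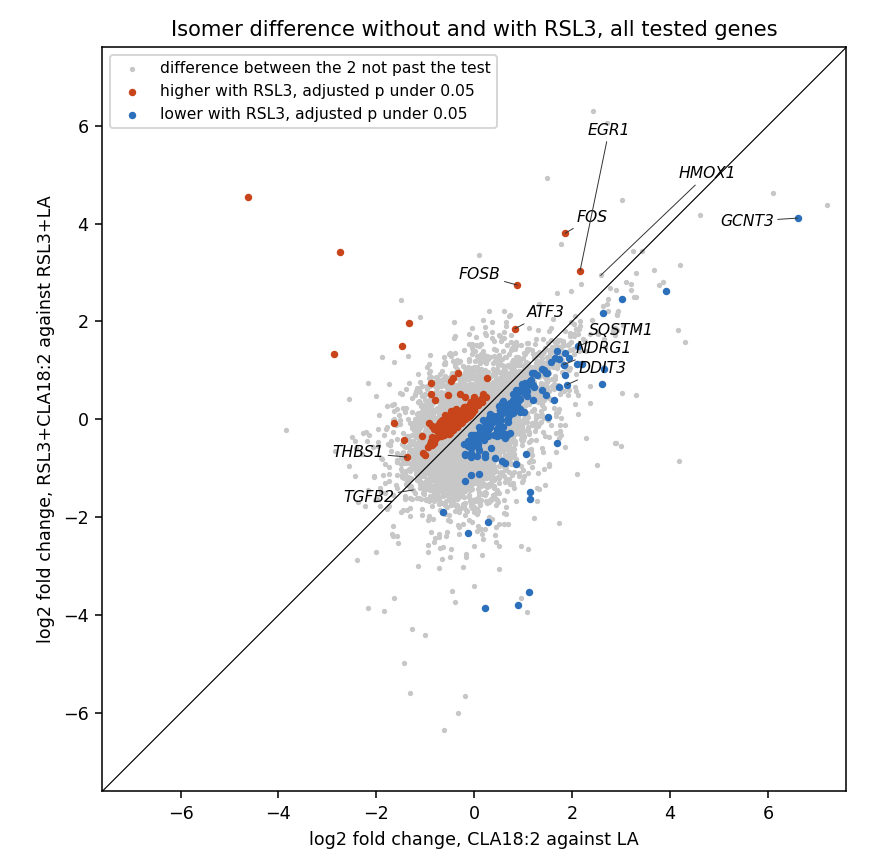
Log2 fold change between the isomers without RSL3 (horizontal) and with RSL3 (vertical) for 16325 tested genes, with the line of equal differences. Red points (394) had a higher and blue points (199) a lower isomer difference with RSL3 at an adjusted p under 0.05, and 11 genes are named. FOS, FOSB, ATF3 and EGR1 lie above the line and GCNT3, SQSTM1, NDRG1 and DDIT3 below it.

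Mitochondrially encoded mRNAs took 0.263%, 0.313%, 1.68% and 0.309% of counts in RSL3+CLA18:2 replicates 1 to 4 and 1.66%, 1.55%, 1.93% and 1.46% in RSL3+LA. Wilson 95% intervals, which cover counting error only, were narrow, from 1.672% to 1.683% for RSL3+CLA18:2 replicate 3 and from 0.2608% to 0.2656% for replicate 1. Replicate 3 of RSL3+CLA18:2 thus lay with the LA libraries, and the group difference was not past an exact two-sided permutation test (p = 0.114, adjusted p = 0.114). Without replicate 3 the difference was -1.35 percentage points, and the exact p of 0.0286 was the smallest that design allows (adjusted p = 0.0571). Leaving out any other of the 8 libraries gave p from 0.114 to 0.143 in that test. A low share was not particular to RSL3+CLA18:2. Replicates 1 to 4 of RSL3 alone had 1.47%, 1.498%, 1.47% and 0.5477%. Those of LA had 1.192%, 1.444%, 1.019% and 0.4514%, and those of CLA18:2 had 0.312%, 1.483%, 0.4252% and 1.005%. DMSO ranged from 1.256% to 1.486%. The cause of the low shares was not tested. Of the 13 mRNAs 9 fell and 0 rose, with a median of -1.33, but for none of the 13 did the groups separate. The named members are MT-ND5 (-1.29 ± 0.40), MT-ND3 (-1.04 ± 0.34), MT-ATP8 (-1.57 ± 0.52) and MT-ND6 (-1.39 ± 0.47), genes with nuclear copies that could share reads. MT-ND5 was at 199, 238, 923 and 234 CPM with CLA18:2 and 984, 933, 1164 and 819 CPM with LA. The count of 9 was 0 when replicate 1, 2 or 4 of RSL3+CLA18:2 was left out. It was 3 without RSL3+LA replicate 1 or 2, 4 without RSL3+LA replicate 3 and 5 in DESeq2. Beside 14.1% higher and 12.0% lower among all tested genes, 10 of 45 nuclear-encoded respiratory chain genes rose and 0 fell. Among them NDUFA4 was at 0.33 ± 0.07. Of these genes 6 rose without RSL3+LA replicate 3, without the filter or with the 8 libraries only, and 5 with library totals only. Without the filter 2 fell. Cytosolic ribosomal protein genes rose in 9 of 50, beside 14.1% of all tested genes, with RPL3 at 0.13 ± 0.04. This count was 1 to 5 when RSL3+CLA18:2 replicate 2 or 1 or RSL3+LA replicate 1 or 3 was left out. It was 5 in limma voom, 4 without the filter, 3 with the 8 libraries only and 0 when scaled by library totals only. Of 11 histone genes 2 rose, H2BC12 and H4C8, beside 14.1% of all tested genes. There was 1 rise without RSL3+LA replicate 1, 2 or 4 or without RSL3+CLA18:2 replicate 1, 2 or 3. Leaving out the filter or using library totals only also gave 1, and limma voom or the 8 libraries only gave 0.

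Several of the larger falls were in genes near or below 10 CPM. LFNG, a glycosyltransferase that modifies Notch, was at 3.97, 4.31, 4.90 and 2.16 CPM with CLA18:2 and at 11.4, 12.6, 10.0 and 10.7 CPM with LA, -1.55 ± 0.20. ATOH8, a basic helix-loop-helix factor, was at 0.576 to 1.58 against 2.67 to 4.36 CPM (-1.76 ± 0.30), and the GABA receptor subunit gene GABRE at 1.78 to 3.98 against 5.92 to 8.96 CPM (-1.43 ± 0.27). TPM1-AS, an antisense gene, was at 0.978 to 1.40 against 3.39 to 4.94 CPM (-1.88 ± 0.27), and since no strand setting is stated its reads cannot be told from those of its partner. SDCCAG8, a centrosomal gene, fell by 1.48, a call lost in limma voom and without RSL3+LA replicate 2 or RSL3+CLA18:2 replicate 2 or 4. On the higher side, HES7, a transcriptional repressor (2.68 ± 0.29), and NAP1L2, a nucleosome assembly protein (2.64 ± 0.18), rose to 4.95 to 7.87 and 11.1 to 16.4 CPM. The epithelial markers summed to 7.97 to 10.4 CPM with CLA18:2 and 10.1 to 11.9 CPM with LA and the endothelial markers to 43.0 to 47.4 and 44.3 to 48.2 CPM, with 0 members of either list past the test.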

How the data were processed

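HT-1080 libraries were sequenced as 150 bp paired reads on an Illumina NovaSeq, per the labels' protocols. The deposited values are raw counts per gene, made by the authors with HISAT, SAMtools and featureCounts on hg38, per the submitters' processing notes, which also name DESeq2. Versions, annotation and strand setting are not given in the sources used here. Counts of 60286 genes were fitted in edgeR 4.0.16 (R 4.3.3; quasi-likelihood, filterByExpr, TMM scaling, all 28 libraries, 1 mean for each of 7 groups), which tested 16325 genes with Benjamini-Hochberg adjustment at 0.05. Every adjusted p for a gene is from edgeR's quasi-likelihood test unless another tool is named, and the interaction is the isomer difference with RSL3 minus that without. The series text calls the 4 replicates independent. Named genes include the 15 called, non-overlapping genes with the largest change each way at a mean of 2 CPM or more, and 48 fixed genes. From each list up to 4 members with the smallest p between the isomers with RSL3 were added. The rest are the 5 genes each way with the smallest interaction p among genes called with RSL3. Of the 168 named genes 30 are not printed. Names given only because a count was 5 or fewer were chosen after values were seen. Members and lists were chosen with earlier results of these data known. Promoters are from RefSeq (GRCh38.p14), and gene positions are those of GENCODE.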

Additional observations from a re-analysis of the deposited data

Results flagged for a closer look

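In 280 groups of 4 libraries (each gene printed with values and each library measure in each of the 2 groups), 28 held a library whose gap to the nearest other was larger, as a share of the group's range, than Dixon's 95% critical value. Chance flags about 1 in 20 such groups. A group that splits into 2 pairs is not flagged, as only the lowest and highest library are looked at. The values follow in CPM, with the range of the other 3 libraries. In RSL3+CLA18:2 replicate 1, the gap was seen for CPT1A (54.45 against 56.88 to 57.23), HMGCS1 (88.11 against 79.22 to 80.22), KEAP1 (139.1 against 122.5 to 123.8) and AJUBA (61.81 against 50.33 to 50.47). Apart from its group, RSL3+CLA18:2 replicate 2 gave AKR1B10 (6.682 against 10.59 to 11.31) and MSRB1 (106.5 against 99.8 to 100.6). The library that stood apart was RSL3+CLA18:2 replicate 3 for FTL (1569 against 1593 to 1598), CXCL3 (18.82 against 14.45 to 15.02), HERPUD1 (118.9 against 110.8 to 111.3), CCNA2 (171.5 against 159.8 to 161.4), NFKBIA (51.61 against 42.36 to 43.8), MT-ND5 (923.4 against 199.1 to 238.4), MT-ND3 (814.7 against 218.1 to 264.7), MT-ATP8 (64.62 against 8.058 to 12.02), MT-ND6 (210.7 against 41.64 to 54.43) and MMP14 (2205 against 2243 to 2251). In RSL3+CLA18:2 replicate 4, the gap was seen for TFRC (1236 against 1136 to 1151), FADS2 (84.9 against 91.91 to 92.96), PPP1R15A (220.3 against 229.8 to 230.5) and IFIT3 (9.769 against 8.46 to 8.676). Apart from its group, RSL3+LA replicate 2 gave IFI27 (8.243 against 0.4193 to 1.52), PKM (2635 against 2775 to 2785), PSMD14 (240.9 against 223.5 to 225.9) and MT-ATP8 (111 against 55.37 to 59.39). The library that stood apart was RSL3+LA replicate 3 for GPX4 (75.72 against 89.71 to 92.2). In RSL3+LA replicate 4, the gap was seen for GSTP1 (306.2 against 284.1 to 287.7) and MSMO1 (95.94 against 83.17 to 85.3). The share of counts on mitochondrial mRNAs stood apart in RSL3+CLA18:2 replicate 3, at 1.678% against 0.2632% to 0.3127%, as did the mitochondrial genes named for that library. Whether these values share a cause was not tested.

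The isomer difference with RSL3 minus that without it, on the log2 scale, passed an adjusted p of 0.05 in edgeR for 43 of the 138 genes printed with values. It was positive for FOS (1.94), FOSB (1.87), ATF3 (1.02), EGR1 (0.872), THBS1 (0.612), NFKBIA (0.59), PBK (0.466), RRM2 (0.448), MKI67 (0.433), CCNA2 (0.415), UHRF1 (0.404), MCM3 (0.382), UBE2C (0.378), AURKB (0.343), RPA2 (0.34), INSIG1 (0.339), CDC20 (0.3), RRM1 (0.3), SCD (0.269) and HSPA8 (0.199). It was negative for SDCCAG8 (-2.61), GCNT3 (-2.5), NMRAL2P (-1.29), TPM1-AS (-1.24), DDIT3 (-1.19), ATP6V0A1 (-0.798), NDRG1 (-0.707), ABCA1 (-0.632), SQSTM1 (-0.617), OSGIN1 (-0.564), SESN2 (-0.531), FTL (-0.498), SLC2A3 (-0.475), HERPUD1 (-0.47), SLC7A11 (-0.453), GDF15 (-0.436), NFKB2 (-0.429), HSPA5 (-0.414), CTSD (-0.375), WFS1 (-0.358), TRIB3 (-0.308), CDKN1A (-0.257) and TXNRD1 (-0.232). A positive value is a higher CLA18:2 to LA ratio with RSL3 than without, also where CLA18:2 was the lower in both.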

How the results depend on the processing

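With RSL3, edgeR called 4254 genes, and the other settings gave 3327 (the 8 libraries only) to 4464 (DESeq2), with 3540 to 4025 on leaving out 1 library. Of the 4254 genes, 2707 were called in every leave-one-out fit of the 8 libraries. DESeq2 also called 4231 of the 4254, limma voom with sample weights by group 3480 and the fit of the 8 libraries only 3272. Called in every fit other than those leaving out 1 library or the mitochondrial genes were 2892 of the 4254. A 2-fold minimum left 493 (218 higher, 275 lower). The replicate block gave 4281 calls, 4921 without RSL3 and 592 for the interaction. Residuals of same-numbered libraries correlated at 0.00606 to 0.0297 with RSL3 and at -0.0132 to 0.134 without it. The 1 value above 0.1 was that of replicate 2. The labels do not say whether a replicate number marks a shared culture or day, and this was not tested. The interaction count of 593 ranged from 374 to 591 on leaving out 1 library, its higher part from 245 to 374 and its lower part from 118 to 255, the lowest total being without RSL3+LA replicate 1. The lower part was 341 in DESeq2 and 371 without the low-count filter. The cause was not tested. Apart from the fixed genes, the genes printed with values were chosen by p or size of change in these same data. Their share of kept calls is therefore not that of all genes. Of 138 genes printed with values 128 were called with RSL3, and 118 kept their call under all alternatives. Of 43 called interactions 33 did, and those lost under at least 1 alternative were SLC7A11, TXNRD1, TRIB3, SCD, MKI67, TPM1-AS, WFS1, HSPA8, ABCA1 and AURKB. Values near 0 changed sign for GPX4 (-0.134 to 0.0086 on leaving out 1 library, the highest without RSL3+CLA18:2 replicate 3), ACSL3 (-0.0065 with library totals only) and MKI67 (-0.0515 with library totals only, -0.0110 without the filter, -0.0015 with the 8 libraries only, and -0.0359 to 0.0669 on leaving out 1 library), none past the test. Leaving out mitochondrial genes and using the 16 libraries of the 4 groups were chosen after seeing the data. Depth limits the genes near 1 CPM.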
